A study of Mus musculus with 5 samples.

Results

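SNORD60, also called U60, is a box C/D small nucleolar RNA (snoRNA), and 1 entry of the snoRNA tables of this series carries its name. It is found by that name among 192 snoRNA entries and 410819 entries in all, and it was chosen by its measured reads, which fill most of the snoRNA tables, so its read numbers and shares are given as a description and were not tested. It was the most abundant snoRNA entry in all 5 libraries, with 72.8% to 91.8% of the reads of the snoRNA table, and its share of all the small RNA reads tabulated ranged from 25.8% in primordial germ cells to 1.04% in zygotes.

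Box C/D snoRNAs are short nuclear RNAs named after a pair of conserved boxes near their ends. They join fibrillarin and its partner proteins, pair with ribosomal RNA and direct the methylation of a ribose in it, and most are cut out of the introns of a host transcript. SNORD60 is a guide for the 28S rRNA of the large ribosomal subunit, and it has also been linked to the trafficking of cholesterol inside cells.

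The series profiled small RNAs along the male germ line and through fertilization in mice. Each cell type was sequenced once, so the spread between samples of a type is not known and cell types could not be tested against each other. Primordial germ cells, the embryonic precursors of the gametes, came from gonads of male CD-1 fetuses at 13.5 days post coitum and were captured with anti-CD15 beads. Spermatogonia, the dividing germ cells of the testis, came from CD-1 testes 8.5 days after birth, after a short culture in which somatic cells attach to the dish, and tested for Stra8, a germ cell gene, and for a lack of the somatic gene Fn1. Spermatozoa were collected from the vas deferens and cauda epididymis of CD-1 mice, with a Percoll gradient and a hypo-osmotic shock. Oocytes, 15210 cells labelled as metaphase II, came from C57BL/6 females of 4 to 5 weeks given 5 IU of PMSG and, 48 hours later, 5 IU of HCG, and their cumulus cells and zona were removed. Zygotes, 15416 cells, came from C57BL/6 females of the same age and hormone treatment mated with DBA/6J males, and were taken 15 to 18 hours after fertilization. The 3 male libraries share the CD-1 strain, but the age and the isolation differ with the cell type, and their parts in a difference cannot be told apart. Between spermatozoa and either egg library the strain differs as well, and zygotes differ from oocytes in also carrying the genome of a DBA/6J father. Each library is 1 bulk sample, in which fewer cells of a type and less RNA per cell cannot be told apart either.

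The gene for SNORD60 is shown here with those of the entries that came second to it in the male germ line, SNORD35 and SNORD32, because the results turn on how far these few RNAs fill the snoRNA tables. Mouse Snord60 (ENSMUSG00000064768.1) is a gene of 78 bases at chr17:24528476-24528553 on the plus strand of GRCm38, in the GENCODE vM21 annotation. It lies in an intron of the non-coding transcript Rab26os-202, inside the exon of Rab26os-201 of the same gene and strand, and opposite to an intron of the protein-coding gene Rab26. The entries SNORD35 and SNORD32 do not say which gene copy they stand for, and Snord35a and Snord32a are shown. Snord35a is at chr7:45126346-45126435 and Snord32a at chr7:45127382-45127464, both on the minus strand in introns of Rpl13a, which encodes a ribosomal protein. In the sequences, written 5′ to 3′, capitals mark TGATG, the core of the C box, near the start and CTGA, the D box, near the end.
Snord60: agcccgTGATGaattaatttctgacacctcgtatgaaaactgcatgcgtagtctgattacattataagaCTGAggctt
Snord35a: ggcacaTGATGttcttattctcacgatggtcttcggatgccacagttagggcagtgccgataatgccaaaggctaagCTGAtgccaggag
Snord32a: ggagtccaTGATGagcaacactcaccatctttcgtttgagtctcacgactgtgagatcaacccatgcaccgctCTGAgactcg

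In Snord60 the C box began at base 7 and the D box at base 70, with 58 bases between them. The letters CTGA also began at bases 21 and 53 of Snord60. Searched on the transcript strand only, TGATG was in 35.9% and CTGA in 79.5% of the 1507 annotated mouse snoRNA transcripts, and 22.4% held TGATG within the first 15 bases and CTGA within the last 15. Snord60 had 39.7% G and C, against 51.1% in Snord35a and 51.8% in Snord32a. All 61 of the 18-base stretches of Snord60 were also in Rab26os-201, the transcript that spans it, and in no other annotated transcript on either strand. No other annotated snoRNA gene lay within 100 kb, where 15 other genes are annotated. The libraries held reads of 18 to 32 bases, shorter than the whole RNA, so the entry counts fragments. The tables hold no read sequences, so which stretch of SNORD60 gave the reads was not tested.

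The entry had 6859214 reads in primordial germ cells, 4730873 in spermatogonia and 905697 in spermatozoa, and 593028 in oocytes and 451288 in zygotes. The order ran from the fetal germ cells through the male line to the egg and zygote. It was the same when these reads were scaled to all the small RNA reads tabulated, but not on every other scale given below. In the snoRNA table its share was 90.7% in primordial germ cells (exact Clopper-Pearson 95% interval 90.67 to 90.71) and 91.8% in spermatogonia (91.82 to 91.86). It was 87.3% in spermatozoa (87.27 to 87.40). In the egg it was lower, at 76.6% in oocytes (76.46 to 76.65) and 72.8% in zygotes (72.66 to 72.89). No 2 of these intervals overlap, but they cover counting error only, since copies made by PCR are not independent molecules and the spread between samples of a cell type is not known.

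**Figure D1:**
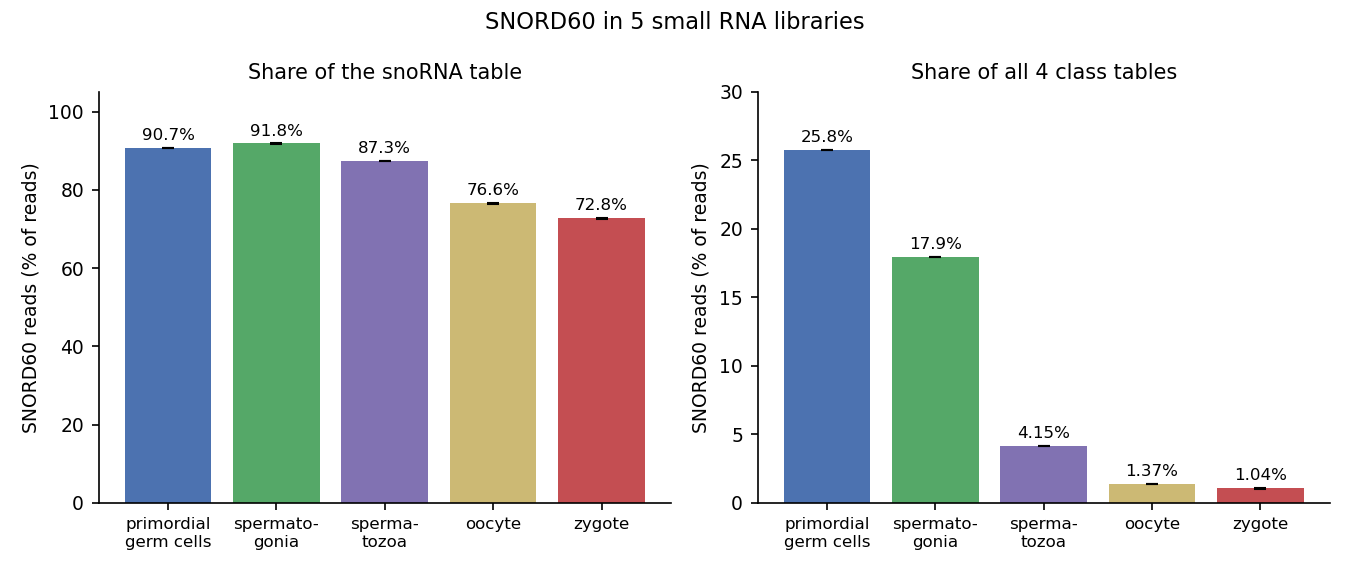
Bars give the share of reads held by SNORD60, in percent, in each of the 5 libraries, left of the snoRNA table and right of all 4 class tables, with exact 95% intervals for counting error as short black lines. The share of the snoRNA table stays between 72.8% and 91.8%, whereas the share of all 4 tables ranges from 25.8% to 1.04%.

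Each library was tabulated in 4 classes, miRNAs, snoRNAs, PIWI-interacting piRNAs and endo-siRNAs (endogenous small interfering RNAs), with 21836360 to 43266969 reads over the 4 tables. Of these reads SNORD60 held 25.8% in primordial germ cells (25.77 to 25.80), 17.9% in spermatogonia (17.91 to 17.94) and 4.15% in spermatozoa (4.139 to 4.156). It held 1.37% in oocytes (1.367 to 1.374) and 1.04% in zygotes (1.040 to 1.046). Over all the entries of a library it ranked 1 in primordial germ cells and in spermatogonia, 4 in spermatozoa, and 5 in oocytes and in zygotes. In primordial germ cells the next entry of any class was miR-182-5p with 3359333 reads, and in spermatogonia miR-143-3p with 2460726. The most abundant entry was a piRNA with 6618917 reads in spermatozoa and an endo-siRNA with 4180754 reads in oocytes, and the same endo-siRNA led in zygotes with 5340795. SNORD60 thus outnumbered every single miRNA, piRNA and endo-siRNA entry in the fetal germ cells and spermatogonia, and a few entries of other classes outnumbered it in the other 3 libraries.

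Against the miRNAs of the same library, SNORD60 gave 57.1 reads per 100 miRNA reads in primordial germ cells, 44.4 in spermatogonia and 74.5 in spermatozoa, and 29.5 in oocytes and 19.4 in zygotes. On this scale spermatozoa stood highest, where on the scale of all 4 tables they stood in the middle. The miRNA table held 5.57% of the tabulated reads in spermatozoa against 45.1% in primordial germ cells and 40.4% in spermatogonia. In RPM, the reads of an entry per 1000000 reads of the 4 tables after 6 entries that name no single snoRNA were left out, SNORD60 was at 258224 in primordial germ cells, 179578 in spermatogonia and 41494 in spermatozoa, and 13714 in oocytes and 10439 in zygotes. Its highest level was 24.7-fold its lowest on that scale.

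Libraries were checked against miRNA markers of their labels and of other cells, in RPM of the miRNA table. Late spermatogenesis miRNAs of the miR-34 and miR-449 families (4 of 4 detected in every library) summed to 232206 in spermatozoa and to 918 to 8254 elsewhere. The miR-290 to miR-295 cluster of pluripotent and early germ cells (10 entries) summed to 31795 in primordial germ cells, 1415 in spermatogonia, 4424 in oocytes and 9424 in zygotes, and to 59.2 in spermatozoa with 5 of 10 at 0. Smooth muscle miR-143-3p and miR-145a-5p summed to 233042 in spermatogonia and 230738 in spermatozoa, against 9259 to 26554 in the other libraries. In spermatogonia nearly all of that sum was miR-143-3p, with 2460726 of the 2483628 reads. Gonadal soma miR-202 was highest in spermatogonia at 14981 (102.8 to 5723 elsewhere), as was endothelial miR-126a-3p at 6501 (69.6 to 854 elsewhere). Erythroid (16371), epithelial (22789) and leukocyte (3047) miRNAs were highest in spermatozoa, against at most 1302, 9934 and 540 elsewhere, with miR-144-3p at 0 in oocytes and miR-142-5p at 0 in oocytes and zygotes. Liver miR-122-5p was at 0 in the 3 male libraries, with 3 reads in oocytes and 4 in zygotes. The sums of epithelial, smooth muscle, gonadal soma, endothelial, erythroid and leukocyte miRNAs were thus above 0 in all 5 libraries. Gonadal soma and endothelial miRNAs were highest in spermatogonia and erythroid, epithelial and leukocyte miRNAs in spermatozoa. The part of all these miRNAs' cells in the SNORD60 values was not tested.

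SNORD60 stood far above the next snoRNA in every library. The entry in second place was SNORD35 in primordial germ cells, with 459040 reads, and in spermatogonia, with 218000, and SNORD60 was 14.9-fold and 21.7-fold above it. In spermatozoa it was SNORD32 with 64220 reads, 14.1-fold below SNORD60. In oocytes and zygotes it was SNORD63, another guide for 28S rRNA, with 42254 and 35030 reads, and SNORD60 was 14.03-fold and 12.9-fold above it. The distance to the second entry thus lay between 12.9-fold and 21.7-fold in all 5 libraries, although the second entry was not the same RNA. These folds, and those of the sums of entries given further on, compare reads per entry and take no account of length. Per base of the gene, SNORD60 was 17.2-fold above SNORD35 in primordial germ cells and 25.04-fold in spermatogonia with the length of Snord35a, and 15.0-fold above SNORD32 in spermatozoa with the length of Snord32a. The entry in the third place was further off in the male line than in the egg: SNORD78 was 409-fold below SNORD60 in primordial germ cells, SNORD57 325-fold in spermatogonia and SNORD35 73.1-fold in spermatozoa, whereas scaRNA6, a small Cajal body RNA, was 31.1-fold below it in oocytes and 20.6-fold in zygotes.

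**Figure D2:**
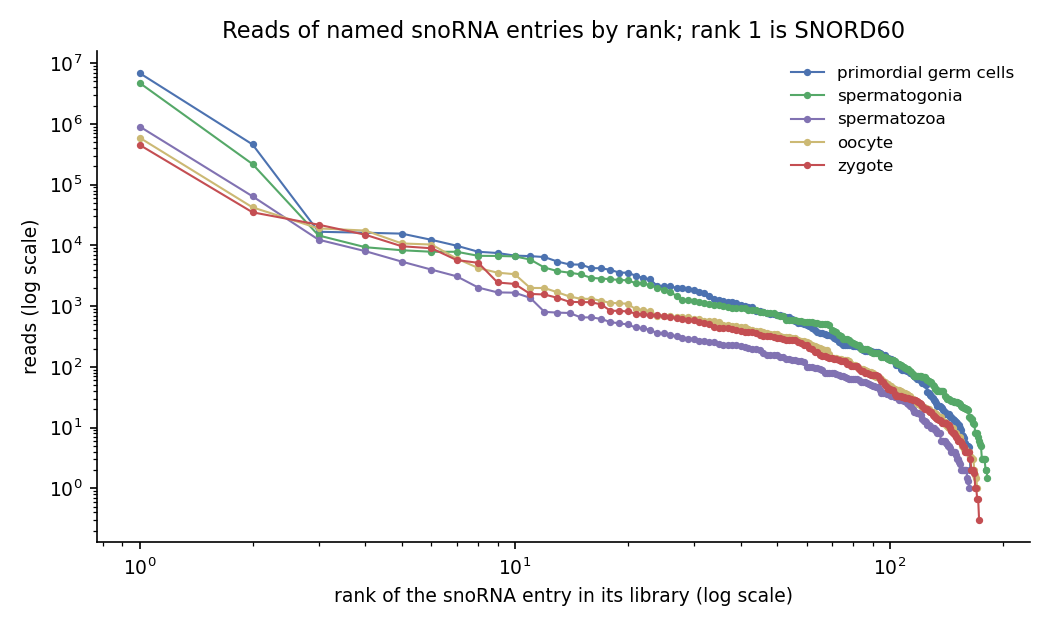
Reads of each named snoRNA entry against its rank within the library, both on log axes, with 1 line per library and rank 1 taken by SNORD60 in all 5. Every line drops steeply after rank 1, by 12.9-fold to 21.7-fold, and in primordial germ cells and spermatogonia it drops steeply again after rank 2.

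All other entries of the snoRNA table together had 704040 reads in primordial germ cells, 420399 in spermatogonia and 131312 in spermatozoa, and 181580 in oocytes and 168833 in zygotes. SNORD60 was 9.74-fold, 11.3-fold, 6.90-fold, 3.27-fold and 2.67-fold above these sums, in that order. The rest of the table was itself uneven, since the entry in second place held 65.2% of it in primordial germ cells, 51.9% in spermatogonia and 48.9% in spermatozoa, and 23.3% in oocytes and 20.7% in zygotes. The median of the other 185 named entries was only 167 reads in primordial germ cells, 163 in spermatogonia and 41 in spermatozoa, and 65 in oocytes and 64 in zygotes, and 21, 4, 23, 15 and 13 of them were at 0. A read number with a fraction, as reads divided among entries would give, was common among these snoRNAs: of the 147 named entries with reads in all 5 libraries, 66 (44.9%) had whole numbers throughout, with no fraction at the 2 decimals deposited. SNORD60 was one of these, whole in all 5 libraries.

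Other guides of 28S rRNA methylation, the group to which SNORD60 belongs, were summed for comparison over 36 entries. The list does not hold SNORD35, which also guides 28S rRNA, or SNORD32, a guide for both 18S and 28S rRNA. It may lack further 28S guides. The 36 had 110177 reads in primordial germ cells, 64334 in spermatogonia and 17468 in spermatozoa, and 84264 in oocytes and 75438 in zygotes. None of the 36 was at 0 in any library. SNORD60 was 62.3-fold above their sum in primordial germ cells, 73.5-fold in spermatogonia and 51.8-fold in spermatozoa, but 7.04-fold in oocytes and 5.98-fold in zygotes. In both egg libraries SNORD63 was the leading member of the list, and without SNORD60 the 36 guides made up 46.4% of the table in oocytes and 44.7% in zygotes, against 13.3% to 15.6% in the male line. That contrast rests on the list: with SNORD35 added, the guides made up 80.9% in primordial germ cells, 67.2% in spermatogonia and 22.7% in spermatozoa, and 56.1% in oocytes and 50.4% in zygotes, and SNORD60 was 12.1-fold, 16.8-fold, 30.3-fold, 5.83-fold and 5.30-fold above their sum. With SNORD32 added too, SNORD60 was 9.63-fold above it in spermatozoa and the guides made up 71.7% there. The 19 entries listed as guides of 18S rRNA methylation are not all such guides. Within the list SNORD57 led in 4 libraries and SNORD105 in spermatozoa. Their sum was smaller than that of the 36. SNORD60 was 319-fold above it in primordial germ cells, 172-fold in spermatogonia and 79.5-fold in spermatozoa. It was 84.3-fold above the sum in oocytes and 74.9-fold in zygotes. These folds rest on the list too, which does not hold SNORD32. In spermatozoa SNORD32 alone had 64220 reads, against 11387 for the sum of the 19.

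The 84 other box C/D entries with a SNORD name together stayed below SNORD60. The distance was 10.9-fold in primordial germ cells, 13.6-fold in spermatogonia and 7.76-fold in spermatozoa, and 4.80-fold in oocytes and 4.37-fold in zygotes. The 61 box H/ACA entries, snoRNAs that guide the conversion of uridine to pseudouridine, were below it by 634-fold, 567-fold and 606-fold in the 3 male libraries and by 75.9-fold and 48.2-fold in oocytes and zygotes. The 14 small Cajal body RNAs, guides for spliceosomal RNAs, were below it by 1380-fold, 635-fold and 2830-fold in the male libraries and by 29.8-fold and 20.0-fold in oocytes and zygotes, and scaRNA6 led them in all 5. The C/D, H/ACA and Cajal body groups were taken by the names SNORD, SNORA and scaRNA. Entries under other names, such as Z22 and MBI-87, were in none of them. The 6 entries listed for C/D RNAs needed to cut pre-rRNA, such as SNORD3 (U3), held 54.4 to 1521 reads. SNORD60 was at least 948-fold above the sum of these 6 in each library. That list does not hold the entry named U3B. It had 367 reads in primordial germ cells, 1989 in spermatogonia and 211 in spermatozoa, and 350 in oocytes and 324 in zygotes. Each of these groups except the pre-rRNA RNAs and the 18S guides was nearest to SNORD60 in the 2 egg libraries.

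The class totals depended on this 1 entry. With SNORD60 the snoRNA table made up 28.4% of the reads of the 4 tables in primordial germ cells and 19.5% in spermatogonia. Without it the shares were 3.57% and 1.94%. In spermatozoa the share was 4.75% with SNORD60 and 0.627% without it, in oocytes 1.79% and 0.426%, and in zygotes 1.43% and 0.394%. The snoRNA class was the second largest in primordial germ cells with SNORD60 and the smallest of the 4 without it. In spermatogonia it was larger than the endo-siRNA class with SNORD60 and the smallest without it. In spermatozoa, oocytes and zygotes it was the smallest both with SNORD60 and without it.

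Leaving SNORD60 out raised the shares of the other classes by simple arithmetic, and by most where it was most abundant. In primordial germ cells the miRNA share went from 45.1% to 60.8%, the piRNA share from 21.9% to 29.5% and the endo-siRNA share from 4.57% to 6.16%. In spermatogonia they went from 40.4% to 49.2%, from 27.1% to 33.02% and from 12.99% to 15.8%. In spermatozoa the piRNA share, 83.4%, became 87.01%. In oocytes the largest class, the endo-siRNAs, went from 60.02% to 60.9% and in zygotes from 71.1% to 71.9%. The effect on the other classes was thus large in the 2 early male libraries and below 1 percentage point in the egg libraries.

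**Figure D3:**
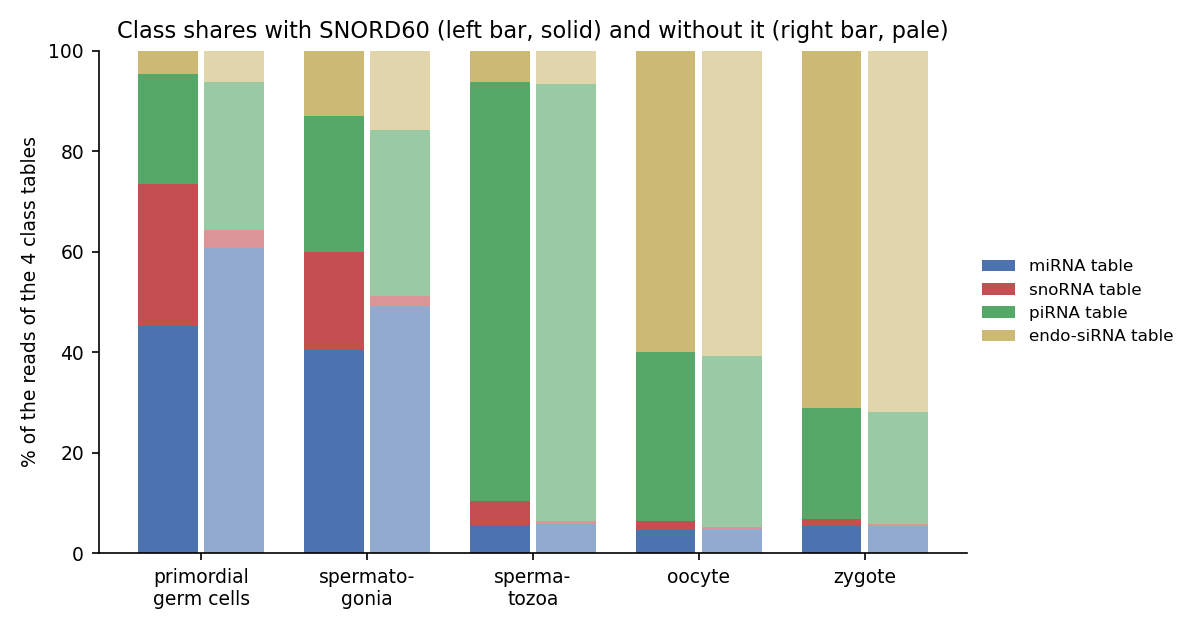
Stacked bars give the percent of the reads of the 4 class tables in each class, for each library with SNORD60 (left, solid) and without it (right, pale). The snoRNA band of 28.4% in primordial germ cells and 19.5% in spermatogonia shrinks to 3.57% and 1.94%, while the bars of oocytes and zygotes hardly change.

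Most of each difference in the snoRNA class between libraries was the difference in SNORD60. The snoRNA share was 19.5% in spermatogonia and 28.4% in primordial germ cells, a difference of -8.91 percentage points, and SNORD60 made up 88.2% of that gap. For spermatozoa against spermatogonia the difference was -14.8 points, 93.3% of it SNORD60. For zygotes against spermatozoa SNORD60 made up 93.6% of the gap, for spermatozoa against oocytes 93.9% and for zygotes against oocytes 91.8%. The ratio of the snoRNA shares also moved: it was 2.65 between spermatozoa and oocytes with SNORD60 and 1.47 without it in the table, and 0.302 between zygotes and spermatozoa with it and 0.629 without it. For zygotes against oocytes it was 0.801 with SNORD60 and 0.927 without it, for spermatogonia against primordial germ cells 0.687 and 0.544, and for spermatozoa against spermatogonia 0.243 and 0.323. No direction turned, and the distance from 1 became smaller in 4 of these 5 comparisons and larger in spermatogonia against primordial germ cells.

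The same 5 pairs of libraries were compared for SNORD60 itself, scaled to the reads of the 4 tables. These comparisons share libraries (spermatozoa enter 3 of them, zygotes, oocytes and spermatogonia 2 each), so they are not independent of each other. Brackets give the exact 95% interval of a ratio of 2 Poisson counts, for counting error only. In zygotes, with 451288 reads against 593028 in oocytes, SNORD60 was 1.31-fold lower (log2 ratio -0.39) [1.31 to 1.32]. Against spermatozoa, with 905697 reads in a smaller library, it was 3.97-fold lower in zygotes (log2 ratio -1.99) [3.96 to 3.99], just short of the 4-fold used to count an entry as apart. In spermatozoa it was 3.03-fold higher than in oocytes (log2 ratio 1.60) [3.02 to 3.04]. The fertilized egg thus held SNORD60 at a level nearer to that of the oocyte than to that of spermatozoa. In the male line it was 1.44-fold lower in spermatogonia than in primordial germ cells (log2 ratio -0.52) [1.44 to 1.44] and 4.33-fold lower in spermatozoa than in spermatogonia (log2 ratio -2.11) [4.32 to 4.34]. The last was the only one of the 5 past 4-fold on this scale. Other scalings turned 3 of these directions: the log2 ratio was 0.15 for zygotes against oocytes in the deposited normalised column, 0.27 for spermatogonia against primordial germ cells on the snoRNA total without SNORD60, and 0.75 for spermatozoa against spermatogonia on the miRNA total. The last was -0.31 with edgeR TMM factors and -0.21 with DESeq2 size factors, far short of 4-fold. Both sets of factors were computed on the snoRNA reads alone. On them the median log2 ratio of the other snoRNAs was -0.23 and -0.13 in that comparison.

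The background was the other snoRNAs with a sum of at least 100 reads in the pair, set beside these ratios. On the same scale, 50.9% of the 114 measured in spermatozoa against spermatogonia were at least 4-fold lower, as SNORD60 was, and 1.75% were at least 4-fold higher. Their median log2 ratio was -2.04, and SNORD60 differed from it by -0.076, with 62 of the others above it and 52 below, so it stood in the middle of the snoRNAs of that comparison. In spermatogonia against primordial germ cells 7.03% of 128 were at least 4-fold higher and 4.69% lower, and SNORD60 differed from the median by -0.31 on the log2 scale. In zygotes against oocytes 1.02% of 98 were at least 4-fold higher and 3.06% lower, and the difference from the median was -0.28. In these 3 comparisons SNORD60 was within 0.4 log2 units of the median of snoRNAs with at least 100 reads. With minimums of 20 reads and 1 read the difference in spermatogonia against primordial germ cells was -0.48 and -0.58.

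SNORD60 was further from the other snoRNAs where spermatozoa were set against the egg. In zygotes against spermatozoa 21% of 100 other snoRNAs were at least 4-fold higher and 19% lower, with a median log2 ratio of 0.17, and SNORD60 differed from that median by -2.17, with 81 others above it and 19 below. In spermatozoa against oocytes 18.8% of 101 were at least 4-fold higher and 21.8% lower, with a median of 0.02, and SNORD60 lay 1.58 above it, with 22 others above it and 79 below. In zygotes against spermatozoa the others ranged widely. The lowest was an entry named U3A, with 0.3 reads in zygotes and 134.52 in spermatozoa (log2 ratio -8.38). SNORD32 came next, with 439 and 64220 reads (-8.18), and the highest was SNORD64, with 595.5 and 3 (6.43). A common scaling moves SNORD60 and the others alike, so these differences from the median are the same under every scaling tried.

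**Figure D4:**
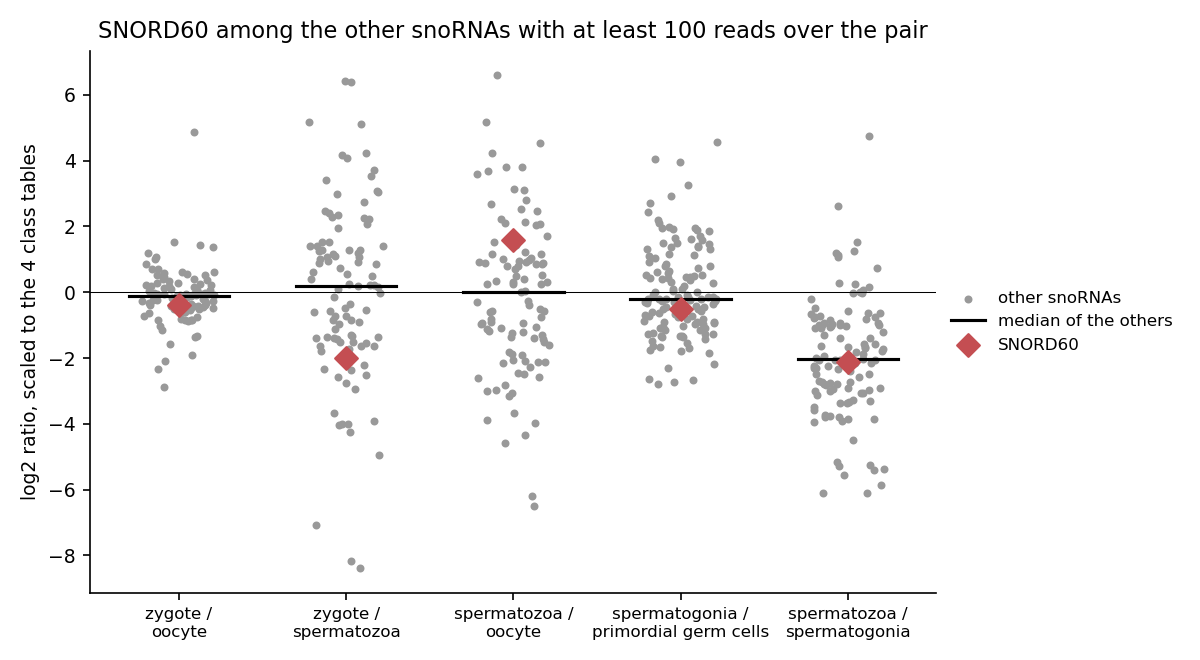
Log2 ratios of 2 libraries, scaled to the reads of the 4 class tables, for the other snoRNAs with at least 100 reads over the pair (grey points, spread sideways at random), their median (black line) and SNORD60 (red diamond). SNORD60 sits near the median in spermatozoa against spermatogonia (difference -0.076), below it in zygotes against spermatozoa (-2.17) and above it in spermatozoa against oocytes (1.58).

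The 36 other guides of 28S rRNA were counted on the same scale of the 4 tables, where their medians lay within 0.4 log2 units of those of all the other snoRNAs. In zygotes against spermatozoa 7 of the 31 measured were at least 4-fold higher and 6 lower, beside 21% and 19% of all others, with a median log2 ratio of 0.23 beside 0.17. In spermatozoa against oocytes 4 of 33 were higher and 8 lower, beside 18.8% and 21.8%, with a median of -0.31 beside 0.02. In spermatozoa against spermatogonia 0 of 35 were higher and 20 lower, beside 1.75% and 50.9% (median -2.16 beside -2.04). Lower guides thus outnumbered higher ones in that comparison, as did lower entries among all the other snoRNAs. In spermatogonia against primordial germ cells 0 of 36 were higher and 3 lower, beside 7.03% and 4.69% (-0.55 beside -0.21), and in zygotes against oocytes 0 of 30 were higher and 2 lower, beside 1.02% and 3.06% (-0.26 beside -0.12). For spermatozoa against oocytes (1.60) and for zygotes against spermatozoa (-1.99) the SNORD60 ratio lay on the other side of 0 from the guides' median.

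The direction of the SNORD60 ratio held under all 8 scalings tried in 2 of the 5 comparisons, zygotes against spermatozoa and spermatozoa against oocytes. The first ran from -2.13, past 4-fold, when SNORD60, SNORD35, SNORD32 and SNORD63 were left out of the snoRNA total, to -0.21 when the whole snoRNA table was the total. The second ran from 0.16 to 1.74 under the same totals. In zygotes against oocytes the log2 ratio was negative under 7 of the 8. In spermatogonia against primordial germ cells it was 0.022 with the snoRNA table as the total, positive too with that total without SNORD60, and negative under the other 6. In spermatozoa against spermatogonia it was negative under 7. Scaled to a total that it mostly fills itself, SNORD60 cannot differ much between libraries: with the whole snoRNA table as the total, the 5 ratios lay between -0.21 and 0.16.

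**Figure D5:**
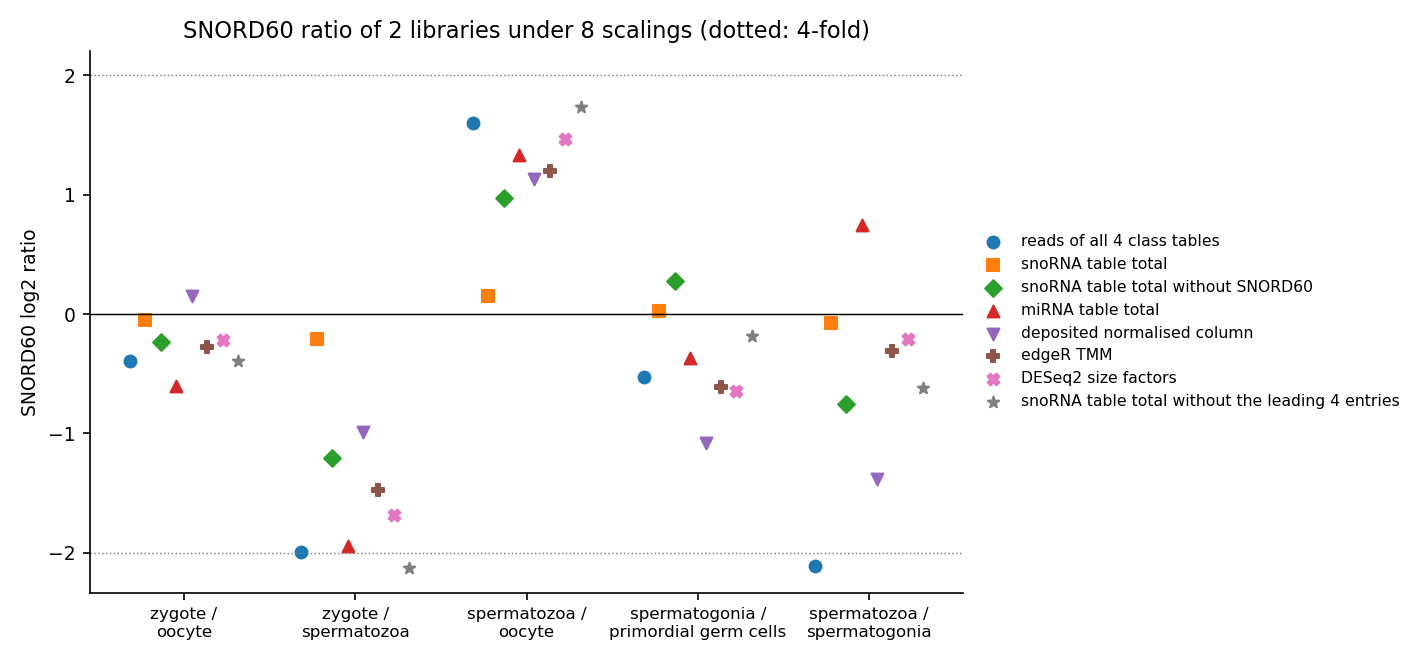
SNORD60 log2 ratio for 5 pairs of libraries, with 1 symbol for each of 8 ways to scale the reads and dotted lines at 4-fold. The orange squares, with the snoRNA table as the total, lie between -0.21 and 0.16 in all pairs, and in 3 pairs the symbols fall on both sides of 0.

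SNORD60 also set the level and the ratio of every other snoRNA scaled to the table. Left out of the total, it raised the level of each other snoRNA, as a share of the total, 11.4-fold in primordial germ cells, 13.5-fold in spermatogonia and 8.42-fold in spermatozoa, and 4.78-fold in oocytes and 4.21-fold in zygotes. Because these factors differ, log2 ratios of the other snoRNAs scaled to the whole table were higher than those scaled without SNORD60 by 1.00 in zygotes against spermatozoa, by 0.68 in spermatozoa against spermatogonia and by 0.18 in zygotes against oocytes. They were shifted by -0.82 in spermatozoa against oocytes and by -0.25 in spermatogonia against primordial germ cells.

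The shift showed in which snoRNAs counted as 4-fold apart. In zygotes against spermatozoa 31 of 100 others were higher (31%) and 11 lower (11%) with SNORD60 left out of the total, 48 and 9 with it in, and 21 and 19 with the 4 tables as the total. In spermatozoa against oocytes 12 of 101 (11.9%) were higher and 29 (28.7%) lower without it, 8 and 46 with it, and 19 and 22 with the 4 tables. In spermatozoa against spermatogonia 8 of 114 (7.02%) were higher and 21 (18.4%) lower without it, 15 and 10 with it, and 2 and 58 with the 4 tables. The larger side thus changed with the total in that comparison. In spermatogonia against primordial germ cells 27 of 128 (21.1%) were higher and 0 (0%) lower without it, 21 and 4 with it, and 9 and 6 with the 4 tables. In zygotes against oocytes 1 of 98 (1.02%) was higher and 2 (2.04%) lower without it, and 1 and 1 with it.

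The total without SNORD60 was led by other single entries in turn. SNORD35 had 459040 reads in primordial germ cells, 218000 in spermatogonia and 12398 in spermatozoa, and 17524 in oocytes and 9674 in zygotes. SNORD32 held 3547, 2912, 64220, 1320 and 439 reads in the same order, and SNORD63 held 9875, 8314, 1663, 42254 and 35030. Primordial germ cells thus had most SNORD35 reads, spermatozoa most SNORD32 and fewest SNORD63, and oocytes most SNORD63. With all 4 leading entries left out, the total was 189907 reads in primordial germ cells, 148731 in spermatogonia and 43739 in spermatozoa, and 95621 in oocytes and 95255 in zygotes. On that total 20 others were at least 4-fold higher and 19 lower in zygotes against spermatozoa, 19 and 18 in spermatozoa against oocytes, 16 and 4 in spermatogonia against primordial germ cells, 8 and 19 in spermatozoa against spermatogonia, and 1 and 3 in zygotes against oocytes.

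The entries with the profile most like that of SNORD60 over the 5 libraries were sought among 147 other snoRNAs and 575 miRNAs with at least 100 reads in all. Likeness was the mean absolute difference of log2 RPM of the 4 tables after each profile was centred on its own mean. The nearest snoRNA was SNORD117, at 0.27, with 727 reads in primordial germ cells, 396 in spermatogonia and 155 in spermatozoa, and 71 in oocytes and 59 in zygotes. SNORD48 followed at 0.35, R38 at 0.38, SNORA29 at 0.41 and SNORA21 at 0.43, and the median of the 147 was 1.17. The nearest miRNAs were miR-669l-5p at 0.21, miR-93-3p at 0.26 and miR-463-5p at 0.27, with a median of 1.37 over the 575. All 8 were entries of far fewer reads than SNORD60, with at most 5392 reads in a library, reached by miR-463-5p in primordial germ cells, and the points share the 5 libraries and their totals.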

How the data were processed

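Small RNA of 18 to 32 nucleotides was extracted with TRIzol and sequenced by Illumina, per the labels' protocols. Per the submitters' processing notes, which give no roles, the tools were Bowtie 0.12.7 and DESeq and the build mm10. How reads with several matches were counted, and against which annotation, is not given in the sources here. Each library has 4 tables of an entry name, reads and a normalised value. The deposited reads were taken as estimated counts, because many hold fractions. The normalised column, a TMM value per the file headers, is in the deposited tables a signal equal to the reads multiplied by a constant of the library (primordial germ cells 0.978, spermatogonia 0.672, spermatozoa 1.35, oocytes 0.937, zygotes 1.37), and served only as an alternative.

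Shares used table totals as deposited, with exact Clopper-Pearson intervals. Ratios and counts of entries left out 6 entries that name no single snoRNA (0.551%, 0.824%, 0.896%, 3.21% and 4.59% of the snoRNA table, in the same order). Entries missing from a table counted as 0. Ratios of other entries used a pseudocount of 0.5 reads and at least 100 reads over the pair. Intervals of ratios were computed on rounded reads. Factors of edgeR 4.0.16 (TMM) and DESeq2 1.42.0 were computed on rounded snoRNA reads, as scalings only. The ratio and interval steps were tested on simulated data. The other alternatives are given in the closing section. Named entries were SNORD60, the 5 other snoRNAs with most reads per library, the 2 highest and 2 lowest ratios per comparison, the 5 snoRNAs and 3 miRNAs most like SNORD60, and list members with most reads; from these, those that bear on SNORD60 are given. SNORD60 and all lists were chosen with earlier results of these data known. Genes and sequences are from GENCODE vM21 on GRCm38, the assembly also called mm10. Python 3.11.15, scipy 1.17.1 and R 4.3.3 were used.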

Additional observations from a re-analysis of the deposited data

How the results depend on the processing

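No paired analysis was possible because each cell type has 1 library, and for the same reason no library could be left out. The depth of the tables, 451288 or more SNORD60 reads per library, makes counting error small beside these changes, and the spread between samples is not known. Values run in the order primordial germ cells, spermatogonia, spermatozoa, oocytes, zygotes. With the 6 entries that name no single snoRNA left out, SNORD60 was 91.2%, 92.6%, 88.1%, 79.1% and 76.3% of the snoRNA table, and the snoRNA share of the 4 tables without SNORD60 was 3.36%, 1.75%, 0.583%, 0.367% and 0.328%. The share of SNORD60 over the miRNA and snoRNA tables alone was 35.1%, 29.9%, 40.2%, 21.3% and 15.3%, which puts spermatozoa first. Over the 4 tables without the 5 most abundant miRNA, piRNA and endo-siRNA entries it was 38.7%, 25.4%, 8.75%, 1.94% and 1.45%.

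The SNORD60 log2 ratio is given in the order whole snoRNA table, that table without SNORD60, miRNA table, deposited column, edgeR TMM, DESeq2 size factors. Zygotes against oocytes gave -0.052, -0.24, -0.61, 0.15, -0.28 and -0.22. Zygotes against spermatozoa gave -0.21, -1.21, -1.94, -0.99, -1.47 and -1.68. Spermatozoa against oocytes gave 0.16, 0.97, 1.34, 1.13, 1.20 and 1.46. Spermatogonia against primordial germ cells gave 0.022, 0.27, -0.36, -1.08, -0.61 and -0.64. Spermatozoa against spermatogonia gave -0.071, -0.75, 0.75, -1.38, -0.31 and -0.21. The total without the 4 leading entries was chosen after seeing the data, and gave -0.39, -2.13, 1.74, -0.18 and -0.62 in the order of these comparisons. The cause of the reversals was not tested.

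Minimums of 20 reads and 1 read for the difference of SNORD60 from the median of the others were also added after seeing the data. They gave -0.23 and -0.19 in zygotes against oocytes, -1.63 and -1.90 against spermatozoa, 1.34 and 1.34 in spermatozoa against oocytes, -0.48 and -0.58 in spermatogonia against primordial germ cells, and -0.063 and -0.057 in spermatozoa against spermatogonia. Without SNORD60 in the total, a minimum of 1 read gave 15 other snoRNAs 4-fold apart in zygotes against oocytes (3 at 100 reads), 79 in zygotes against spermatozoa (42) and 76 in spermatozoa against oocytes (41). Minimums of 20 reads and 1 read gave 48 and 60 in spermatogonia against primordial germ cells (27), and 51 and 59 in spermatozoa against spermatogonia (29). The 4-table total gave 60 in the last, and 15 in spermatogonia against primordial germ cells, where TMM gave 15 (9 higher, 6 lower) and DESeq2 14 (8 and 6). In zygotes against spermatozoa TMM gave 24 higher and 14 lower and DESeq2 22 and 16, and in spermatozoa against spermatogonia 10 and 14, and 11 and 12. Judged on the total apart in either direction, these last 4 and the other counts under alternatives, 29 in all, stayed within 1.5 times of the value reported. A pseudocount of 5 reads moved no total past that. The split between higher and lower could move more. In spermatozoa against spermatogonia the 8 higher and 21 lower reported without SNORD60 in the total became 11 and 12 with DESeq2. The sums of 28S guides with SNORD35 and SNORD32 added were also chosen after seeing the data.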
